A study of Mus musculus with 8 samples.

Results

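The genes examined here were 9 members of the JAK-STAT pathway and its SOCS feedback inhibitors, namely Stat3, Stat5a, Stat5b, Stat6, Jak1, Jak2, Socs1, Socs2 and Socs3. They were picked by symbol, matched to the Ensembl identifiers of the count tables, and make up 9 of the 45706 genes listed. All 9 passed the filter on low counts, which kept 14491 genes for testing. RNA was sequenced from crypts freshly isolated by EDTA chelation from the small intestine (SI) and from the colon (COL) of C57BL/6N mice. 4 donor mice, 2 female and 2 male, each gave 1 library per tissue, so that 8 libraries formed 2 groups of 4, all of the wild type genotype and with no treatment named in the labels. The libraries are called SI1 to SI4 and COL1 to COL4 by replicate number, and replicates 1, 2, 3 and 4 came from donor mouse 1, 2, 3 and 5. Replicates 1 and 4 were female, and the labels give no age. The crypt preparation described for the organoid cultures scraped the villi off the small intestine only, and exposed the colon to EDTA at a higher concentration and for longer.

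Total counts ran from 15969428 in COL2 to 32908060 in COL4. The share of mitochondrial transcripts was 22.7 to 50.8% in SI2, SI3, COL1 and COL2 and 4.83 to 7.35% in SI1, SI4, COL3 and COL4, and each set was also tested alone. In SI this split is also the split by sex, so that the contributions of sex and mitochondrial share cannot be told apart there. The defining transcripts of each tissue went with its labels. Summed over 6 markers of small intestinal enterocytes and Paneth cells, the level was 33866 to 83038 CPM (read counts scaled by TMM to a common library size) in SI and 10.2 to 99.7 CPM in COL. Of 6 colonic markers 5 were higher in COL by edgeR's quasi-likelihood test, and the sum of all 6 was 12462 to 39529 CPM in COL and 693 to 1442 CPM in SI. Crypt preparations also hold other cells, and the sum of 10 immune cell markers was 46.0 to 116.1 CPM in SI against 15.9 to 42.4 CPM in COL, without overlap. 6 of the 10 passed the filter, and Cd3e, Cd8a and Itgam were higher in SI. Ptprc (log2 fold change 0.96, adjusted p of 0.0516 by edgeR) and Cd3g (2.40, 0.0511) did not pass. Cd68 (-0.76, 0.339) did not pass either, and was lower in SI within each mouse. The sum of 8 stromal markers was 3.48 to 12.7 CPM in SI and 5.78 to 16.3 CPM in COL, and the endothelial Pecam1 was higher in COL (log2 fold change -2.71, adjusted p of 0.0248 by edgeR). The sum of 5 epithelial markers was 6419 to 11687 CPM in SI and 3200 to 7937 CPM in COL, with Vil1 higher in SI (3.25) and Krt18 higher in COL (-1.40) by edgeR. Within SI several of these sums split as the mitochondrial share did. The enterocyte and Paneth markers summed to 83038 and 53750 CPM in SI1 and SI4 against 34506 and 33866 CPM in SI2 and SI3. Apoa1 made up most of this sum, at 64614 and 40417 CPM in SI1 and SI4 against 23817 and 19084 CPM in SI2 and SI3. Fabp1, Sis, Alpi and Lyz1 did not split this way. Lyz1, the Paneth cell marker, read 61.3, 699.9, 401.0 and 441.6 CPM in SI1 to SI4. The sums of immune markers (116.1 and 86.4 against 49.9 and 46.0 CPM), epithelial markers and colonic markers were also higher in SI1 and SI4. Stromal markers did not split this way. The sum of 5 proliferation genes split in reverse, at 69.0 and 231.7 CPM in SI1 and SI4 against 420.1 and 351.7 CPM in SI2 and SI3. The part of cell composition in the split within SI was not tested. The part of other cells in the differences below was not tested either. In bulk RNA of this kind, fewer cells of a type and less RNA per cell cannot be told apart.

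Cytokine and hormone receptors without kinase activity of their own carry Janus kinases (JAKs) on their cytoplasmic tails. Ligand binding brings the kinases together, they phosphorylate the receptor, and STAT transcription factors dock there, are phosphorylated in turn, pair up and move to the nucleus. SOCS proteins are themselves induced by STATs and shut the receptor complex down again. In the intestine, STAT3 is known for relaying signals of the IL-6 and IL-22 families in epithelial repair, and STAT6 for relaying IL-4 and IL-13.

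The promoters of these genes were searched for the letters that STATs are known to bind. STAT dimers other than those of STAT6 favour TTCNNNGAA, and STAT6 prefers TTCNNNNGAA, 1 base wider. Both patterns read the same on either strand. RefSeq promoters (GRCm38.p6, 250 bases before to 50 bases after the start site) were at hand for 8 of the 9 genes. Of these 10 promoters 1 held TTCNNNGAA, that of Socs3, and 0 held TTCNNNNGAA. Over all 32851 mouse promoters of the same length, the shares were 8.3% and 6.95%. The match in Socs3 starts 154 bases before the start site. The sequence is shown because Socs3 had the largest fold difference of the 9 genes. It runs 5′ to 3′ on the minus strand at chr11:117969367-117969616, with the match in capitals. By GENCODE it lies upstream of the coding transcript, inside the span of longer noncoding isoforms of Socs3.
Socs3: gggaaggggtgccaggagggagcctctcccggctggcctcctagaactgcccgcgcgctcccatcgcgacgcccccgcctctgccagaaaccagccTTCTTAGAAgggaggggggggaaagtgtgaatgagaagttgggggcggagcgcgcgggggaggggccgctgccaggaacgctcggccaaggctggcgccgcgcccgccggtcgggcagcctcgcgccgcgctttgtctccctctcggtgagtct

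Of the other listed genes of the pathway, 57 had 73 RefSeq promoters, of which 11 (15.1%) held TTCNNNGAA and 6 (8.22%) held TTCNNNNGAA. TTCNNNGAA was found for 10 genes. Irf1, Reg3b, Prlr and Ifnar1 were higher in SI, Cish, Bcl6 and Ifnar2 did not pass the test of the tissues, and Ifng, Il4 and Il7r were under the filter on low counts. TTCNNNNGAA was found for Stat2, Ifngr2 and Bcl2l1, which were higher in SI, and for Il11, Il20ra and Il4, which were under the filter. With or without a match, 57 of the 76 other listed genes passed the filter. Of these, 18 were higher in SI, against 15.5% of all genes tested. Whether a match goes with a difference between the tissues was not tested. Matches of 3 genes are shown, chosen after their values were seen. These are Irf1 (chr11:53769914-53769942, 90 bases before the start site), Reg3b (chr6:78370746-78370774, 129 bases before it) and Prlr (chr15:10223786-10223814, 110 bases before one of its start sites), all on the plus strand. By GENCODE the stretches of Reg3b and Prlr lie inside the spans of these genes, which begin at 78370657 and 10177238. A match of letters is a description, and no binding was measured.
Irf1: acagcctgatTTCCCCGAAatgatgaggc
Reg3b: agcctgttctTTCTTGGAAactctttgag
Prlr: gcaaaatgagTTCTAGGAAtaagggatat

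SI crypts held more Jak2, Stat3, Stat6 and Socs3 RNA than COL crypts, with fold differences from 2.47 to 6.67. Stat5a, Stat5b, Jak1, Socs1 and Socs2 did not pass the test. Thus 4 of the 9 genes passed an adjusted p of 0.05 in the quasi-likelihood test of edgeR (Benjamini-Hochberg adjustment), all 4 higher in SI. Among all genes tested, 28.4% passed in either direction, 15.5% higher in SI and 12.9% higher in COL. The 4 SI values lay above the 4 COL values for the same 4 genes and below them for 0 of the 9. Among all genes tested 33.5% had no overlap, 17.8% with SI above and 15.7% with SI below. For the 4 genes the direction was the same within each of the 4 mice. The median log2 fold change of the 9 genes was 0.63, against -0.09 over all genes tested.

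**Figure D1:**
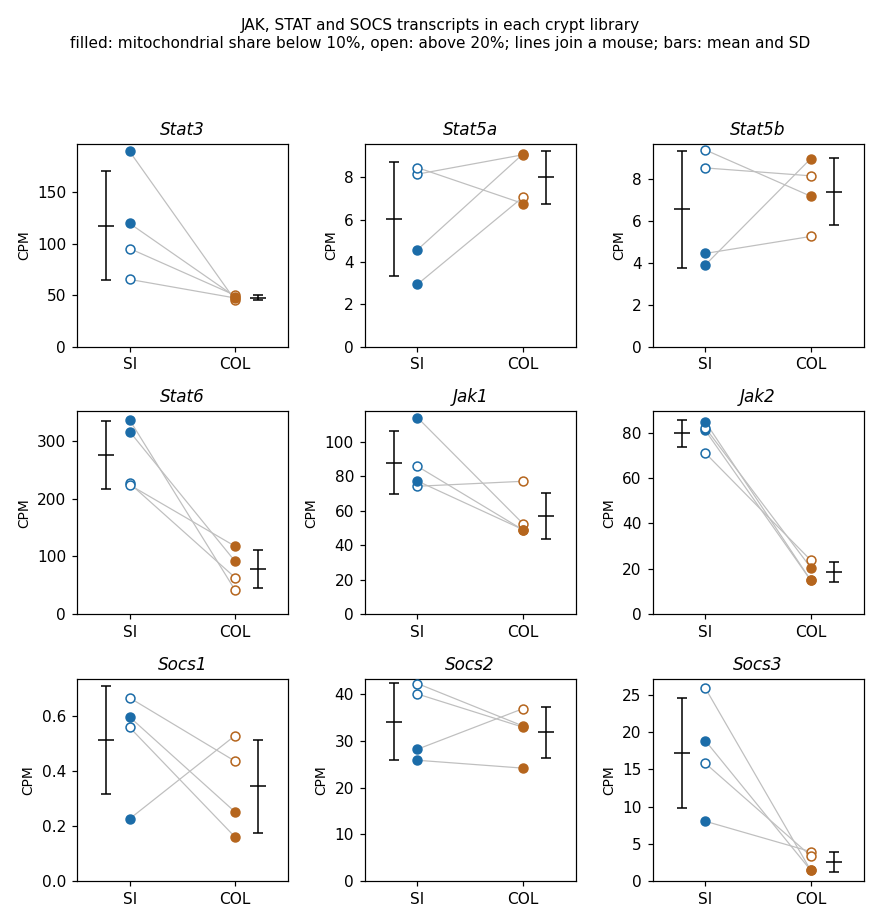
Level of each of the 9 transcripts in every library (CPM, y axis, starting at 0) by tissue (x axis). Points are libraries, filled where the mitochondrial share was below 10% and open where it was above 20%, lines join the 2 libraries of a mouse, and bars give the mean and SD of 4 libraries. The SI points lie above all COL points for Stat3, Stat6, Jak2 and Socs3.

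Jak2, at chr19:29251828-29313080 on the plus strand (GRCm38, ENSMUSG00000024789), encodes the kinase of the growth hormone, prolactin and interferon gamma receptors. It read 81.0, 71.1, 82.2 and 84.8 CPM in SI1 to SI4 and 14.8, 23.7, 20.4 and 14.8 CPM in COL1 to COL4. The SI libraries were close together and far above every COL library. The mean was 79.8 ± 6.03 CPM in SI against 18.5 ± 4.39 CPM in COL (SD, n = 4 each), and the log2 fold change of 2.11 (SE 0.25, 95% interval 1.56 to 2.67) had an adjusted p of 0.000116 by edgeR.

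Jak1, at chr4:101152367-101265282 on the minus strand (ENSMUSG00000028530), encodes the kinase shared by gp130, interferon and common gamma chain receptors. It read 114.1, 74.2, 85.8 and 77.2 CPM in SI against 52.5, 77.1, 48.9 and 49.0 CPM in COL. COL2 lay inside the SI range and the other 3 COL libraries below it, so that the ranges overlapped and 3 of 4 mice had more in SI. The log2 fold change of 0.63 (SE 0.27, 95% interval 0.04 to 1.21) had an adjusted p of 0.102 by edgeR. Without COL2, the library with the highest mitochondrial share, it was 0.82 at an adjusted p of 0.035, and over the 4 libraries of low mitochondrial share it was 0.96 at an adjusted p of 0.0278. Over the 4 libraries of high mitochondrial share it was 0.24 at an adjusted p of 0.732.

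The pair was also compared as a ratio within each library, which does not depend on how libraries are scaled. The log2 count ratio of Jak1 to Jak2 was 0.49, 0.06, 0.06 and -0.14 in SI1 to SI4 and 1.82, 1.70, 1.26 and 1.72 in COL1 to COL4. All COL values lay above all SI values, and the ratio was lower in SI in all 4 mice. As geometric means there were 1.09 counts of Jak1 per count of Jak2 in SI and 3.08 in COL. The difference of -1.50 (SD 0.27 in SI and 0.25 in COL, n = 4 each) had a two-sided exact permutation p of 0.0286, the smallest that 70 assignments allow, and 0.0857 after adjustment over 3 ratios. An exact sign-flip test over the 4 mice gave 0.125, the smallest it can give. Per kilobase of exon, Jak1 and Jak2 were at 12.2 ± 2.52 and 15.9 ± 1.20 CPM in SI, and at 7.87 ± 1.88 and 3.67 ± 0.874 CPM in COL. Exon length here is the union of annotated exons, 7227 bases for Jak1 and 5030 for Jak2. The longest Jak1 transcript has 4906 bases, and the order of Jak1 and Jak2 in SI depends on the length used.

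**Figure D2:**
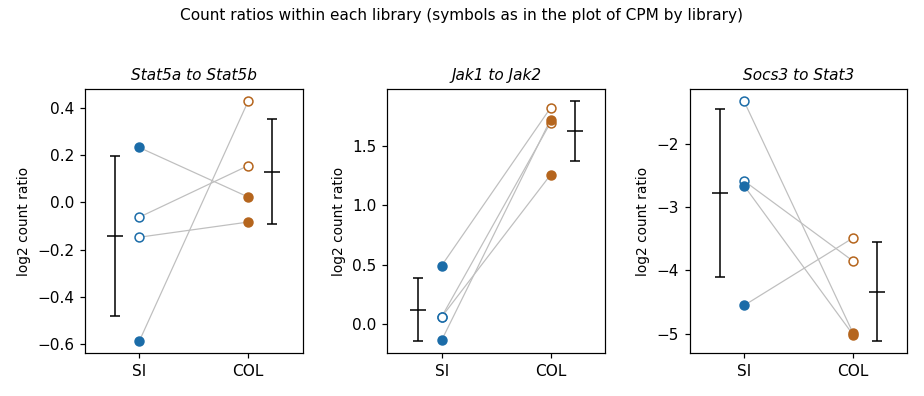
Log2 ratio of the counts of 2 genes within a library (y axis) in SI and COL (x axis) for Stat5a to Stat5b, Jak1 to Jak2 and Socs3 to Stat3. Points are libraries with symbols as in the plot of CPM by library, lines join the libraries of a mouse and bars give the mean and SD of 4 libraries. The COL points lie above all SI points for Jak1 to Jak2 alone.

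Stat6, at chr10:127642986-127660957 on the plus strand (ENSMUSG00000002147), was the most abundant of the 9 per kilobase of exon in both tissues. It read 336.2, 226.4, 223.8 and 316.1 CPM in SI against 41.3, 63.0, 117.3 and 91.2 CPM in COL. The lowest SI library was well above the highest COL library, and in both tissues the libraries of high mitochondrial share were the lower ones. The mean was 275.6 ± 58.9 CPM in SI against 78.2 ± 33.1 CPM in COL (SD, n = 4 each), a log2 fold change of 1.82 (SE 0.37, 95% interval 1.01 to 2.62) at an adjusted p of 0.00343 by edgeR.

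Stat3, at chr11:100885098-100939540 on the minus strand (ENSMUSG00000004040), read 189.9, 95.4, 65.3 and 119.9 CPM in SI against 44.9, 49.8, 47.2 and 48.5 CPM in COL. The COL libraries were nearly level, whereas the SI libraries were spread out with SI1 on top and SI3 at the bottom. The mean was 117.6 ± 53.1 CPM in SI against 47.6 ± 2.09 CPM in COL (SD, n = 4 each), a log2 fold change of 1.30 (SE 0.33, 95% interval 0.59 to 2.02) at an adjusted p of 0.0114 by edgeR. SI1 and SI4, the SI libraries of low mitochondrial share, were the higher ones, and SI1 also had the lowest sum of 5 proliferation genes (69.0 CPM, against 231.7 to 420.1 CPM in the other SI libraries). The call on Stat3 held with the mitochondrial share as a covariate (1.21, adjusted p of 0.0136), and was lost in 2 other settings that bear on these values. Over the 4 libraries of high mitochondrial share the log2 fold change was 0.69 at an adjusted p of 0.27, and with the proliferation genes as a covariate it was 0.84 at an adjusted p of 0.08. Over the 4 libraries of low mitochondrial share it was 1.68 at an adjusted p of 0.0084.

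Stat5a (chr11:100859351-100885169, plus strand, ENSMUSG00000004043) and Stat5b (chr11:100780731-100850724, minus strand, ENSMUSG00000020919) lie beside Stat3. They encode the closely related STATs that relay growth hormone, prolactin and IL-2 family signals. Stat5a read 2.94, 8.16, 8.47 and 4.58 CPM in SI against 7.07, 9.07, 6.77 and 9.11 CPM in COL. Stat5b read 4.44, 8.52, 9.38 and 3.89 CPM in SI against 5.25, 8.14, 7.17 and 8.96 CPM in COL. For both genes the ranges overlapped, and SI1 and SI4 were the low libraries of SI, the reverse of Stat3. The log2 fold change was -0.41 (SE 0.38, 95% interval -1.25 to 0.43) at an adjusted p of 0.462 for Stat5a. For Stat5b it was -0.17 (SE 0.38, 95% interval -0.999 to 0.655) at an adjusted p of 0.771, both by edgeR.

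The split within SI was larger than the tissue difference for these genes. The mean log2 CPM in SI2 and SI3 was above that in SI1 and SI4 by 1.16 for Stat5a and 1.09 for Stat5b, whereas for Stat3 the same difference was -0.93. In COL the libraries of high and low mitochondrial share differed by 0.03 for Stat5a, -0.29 for Stat5b and -0.02 for Stat3. SI minus COL was therefore -1.08 for Stat5a and -0.94 for Stat5b among libraries of low mitochondrial share, and 0.05 and 0.45 among those of high share. These differences are descriptions of 2 libraries each. SI1 and SI4 differed from SI2 and SI3 also in sex and in the enterocyte, immune, epithelial, colonic and proliferation gene sums. With the proliferation genes as a covariate the log2 fold change was -0.09 for Stat5a (adjusted p of 0.89 by edgeR) and 0.04 for Stat5b (0.96). The part of each of these differences in the split within SI was not tested.

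The log2 count ratio of Stat5a to Stat5b had a mean of -0.14 ± 0.34 in SI and 0.13 ± 0.22 in COL (SD, n = 4 each). The 2 sets of values overlapped, and the two-sided exact permutation p was 0.257, the same after adjustment over 3 ratios. Reads may be shared between the paralogs, since 10.8% of the 50-base stretches of the longest Stat5a transcript also occur in Stat5b and 11.8% of those of Stat5b in Stat5a. Stat5a and Stat3 end in each other on opposite strands with an overlap of 72 bases, and whether the counting used the strand is not given in the sources used here. Stat3 is counted many times higher than Stat5a, and the part of reads from that overlap in the Stat5a values was not tested.

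Socs3, at chr11:117966079-117970047 on the minus strand (ENSMUSG00000053113), encodes the feedback inhibitor that acts on gp130 and JAK kinases and is itself a STAT3 target. It read 8.06, 15.8, 25.9 and 18.9 CPM in SI against 3.99, 3.42, 1.47 and 1.49 CPM in COL. No SI library was as low as any COL library, with SI1 the lowest of SI and COL1 the highest of COL, both from donor mouse 1. The mean was 17.2 ± 7.39 CPM in SI against 2.59 ± 1.31 CPM in COL (SD, n = 4 each). The log2 fold change of 2.74 (SE 0.47, 95% interval 1.70 to 3.78) had an adjusted p of 0.00132 by edgeR. The counts behind these values were 178 to 511 per library in SI and 55 to 136 in COL.

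Socs3 and Stat3 did not move together within SI. SI1 had the most Stat3 and the least Socs3, and SI3 the reverse. The log2 count ratio of Socs3 to Stat3 was -4.55, -2.59, -1.33 and -2.67 in SI and -3.49, -3.85, -4.99 and -5.02 in COL. The ranges overlapped through SI1 and the ratio was higher in SI in 3 of 4 mice. The difference of 1.55 had a two-sided exact permutation p of 0.0857, and 0.129 after adjustment over 3 ratios.

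Socs2, at chr10:95385362-95417180 on the minus strand (ENSMUSG00000020027), encodes the inhibitor best known for restraining growth hormone signalling. It read 28.2, 42.2, 39.9 and 25.8 CPM in SI against 36.8, 33.1, 32.9 and 24.1 CPM in COL. The tissues were interleaved, and the lowest library of each came from donor mouse 5. The log2 fold change was 0.10 (SE 0.26, adjusted p of 0.809 by edgeR), with a 95% interval of -0.47 to 0.67. Of its 50-base stretches 7.23% also occur in other genes, Gm9847 and Gm8000.

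Socs1, at chr16:10782240-10785536 on the minus strand (ENSMUSG00000038037), encodes an inhibitor of JAK kinases that limits interferon signalling. It was near the detection limit, at 0.226, 0.665, 0.558 and 0.595 CPM in SI against 0.528, 0.435, 0.160 and 0.251 CPM in COL. These values rest on 5 to 13 counts per library in SI and 6 to 18 in COL. A difference was not detectable at this depth, since the 95% interval of its log2 fold change of 0.58 (SE 0.70, adjusted p of 0.576 by edgeR) ran from -0.95 to 2.12.

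**Figure D3:**
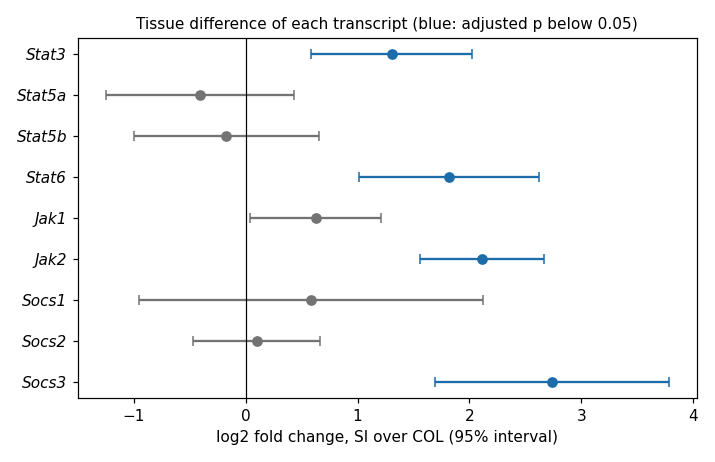
Log2 fold change of SI over COL (x axis) for each of the 9 genes (y axis) from edgeR over 8 libraries. Bars are 95% intervals and blue marks an adjusted p below 0.05, which Stat3, Stat6, Jak2 and Socs3 had, all to the right of 0.

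Levels of different genes were compared per kilobase of exon. Exon length was the union of all annotated exons, 9527 bases for Stat3, 7227 for Jak1, 9531 for Socs2 and 5030 for Jak2. The longest transcripts of these genes have 6042, 4906, 4242 and 5030 bases. The order below therefore depends in part on the length used, including that of Jak1 and Jak2 in SI. In SI, Stat6 stood first at 62.6 ± 13.4 CPM per kilobase, followed by Jak2 at 15.9 ± 1.20, Stat3 at 12.3 ± 5.57 and Jak1 at 12.2 ± 2.52. Socs3 came next at 5.94 ± 2.56 and Socs2 at 3.57 ± 0.863. Stat5b at 1.18 ± 0.504, Stat5a at 0.846 ± 0.380 and Socs1 at 0.176 ± 0.0670 closed the order. In COL, Stat6 was again first at 17.8 ± 7.53, but Jak1 at 7.87 ± 1.88 and Stat3 at 5.00 ± 0.219 came before Jak2 at 3.67 ± 0.874. Socs2 at 3.33 ± 0.564 followed, and Socs3 at 0.896 ± 0.452 fell behind Stat5b at 1.33 ± 0.289 and Stat5a at 1.12 ± 0.177. Socs1 was last at 0.118 ± 0.0577. Neighbours in this order that differed by less than the larger of their SDs were Jak2 and Stat3, Stat3 and Jak1, and Socs3 and Socs2 in SI. In COL they were Jak2 and Socs2, and Stat5a and Socs3, and in both tissues Stat5b and Stat5a.

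Whether the tissue difference depended on sex was asked with the interaction of tissue and sex. In edgeR's quasi-likelihood test 0 of the 9 genes and 0 of all 14491 genes passed an adjusted p of 0.05, and 761 genes (5.25%) had an unadjusted p below 0.05. The smallest unadjusted p among the 9 was 0.108, for Stat5a, at an adjusted p of 0.909. Its log2 difference between SI and COL was -1.11 in females and 0.08 in males. Stat3 had 1.69 in females and 0.70 in males. With 2 mice of each sex, and with sex and mitochondrial share the same split in SI, these values are descriptions.

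As a description of their pattern over the 8 libraries, the genes whose log2 CPM followed each member most closely were sought among tested genes with a mean log2 CPM of at least 3. Such correlations share the tissue gap, the mice and the scaling. Stat6 was followed by Lasp1 (Pearson's r of 0.999) and Aldh3b1 (0.998), and Jak2 by Gm8909 (0.999) and Maf (0.997). Stat3 was followed by Mob3b (0.980) and Gemin7 (0.979), and Socs3 by Zyg11b (0.976) and Tha1 (0.973). Jak1 was followed by Fez2 (0.986) and Pip5k1a (0.966). For genes without a tissue gap the closest were Mphosph10 (0.977) and Alkbh1 (0.958) for Stat5a, Pick1 (0.915) and Zfp687 (0.893) for Stat5b, Gapvd1 (0.945) and Lrrc45 (0.934) for Socs2, and Desi1 (0.960) and Zfp91 (0.941) for Socs1. Stat5a and Stat5b had an r of 0.848 with each other.

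Around these 9 genes, 76 other genes of the pathway were listed by role, of which 57 passed the filter. 18 had more RNA in SI and 3 more in COL by edgeR, against 15.5% and 12.9% of all genes tested. The median log2 fold change was 0.72, against -0.09 over all genes tested. 21 had SI values above all COL values and 4 had SI values below them, against 17.8% and 15.7% of all genes tested. Of the 21 that passed the test, 10 kept the call under every alternative that tested them. Over the 4 libraries of high mitochondrial share, Il4ra, Il2rb, Ifngr2, Ifnlr1, Ifnar1, Stat2, Socs4, Socs6 and Cxcl10 did not pass (adjusted p of 0.104 to 0.31 by edgeR). Over those of low share Socs5, Il2rb and Cxcl10 did not pass (0.0618 to 0.119). Of the genes that had not passed over all 8 libraries, Bcl6, Ifnar2, Tyk2, Pias1 and Lifr passed over those of low share (0.0116 to 0.0499), with Lifr the one higher in COL. Under scaling by library size alone, which moves the middle of all tested genes to -0.82, 10 had more in SI and 12 more in COL, in place of 18 and 3. Of all 14491 genes tested, 1115 had more in SI and 4788 more in COL under this scaling, in place of 2253 and 1863.

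**Figure D4:**
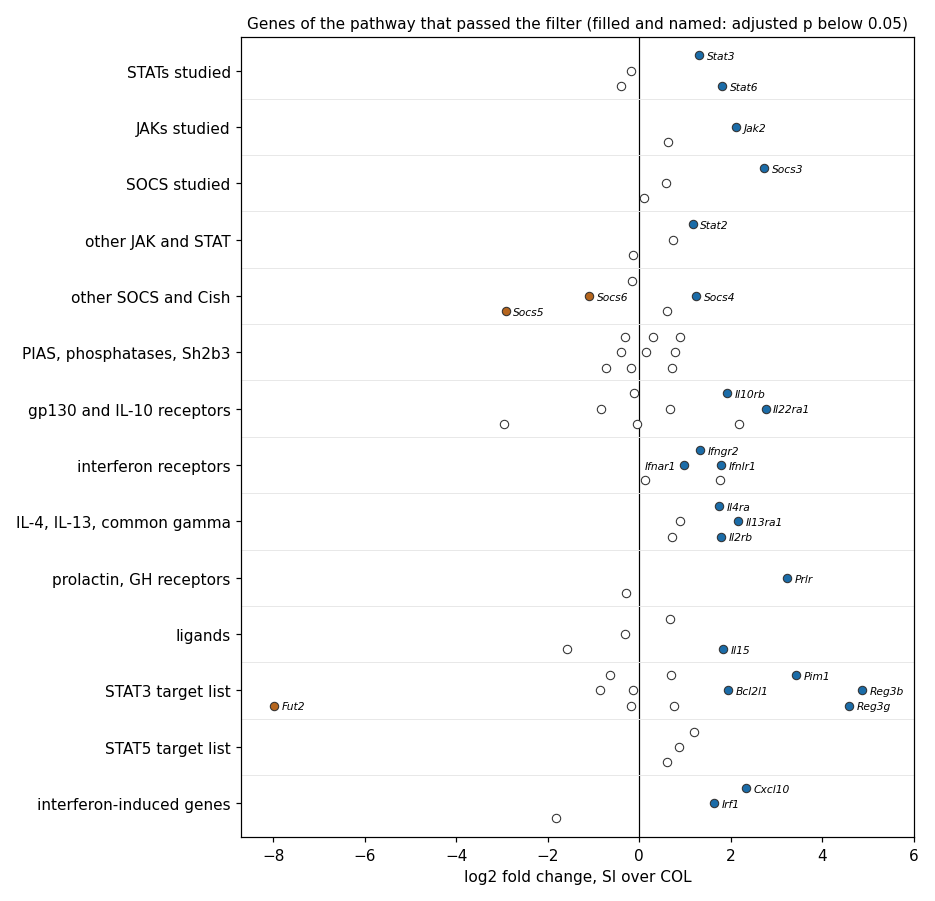
Log2 fold change of SI over COL (x axis) for the listed genes of the pathway that passed the filter, grouped by role (y axis). Filled and named points had an adjusted p below 0.05 by edgeR, blue where higher in SI and brown where higher in COL. The 4 receptor groups hold named points on the SI side only, and the group of PIAS proteins and phosphatases holds none.

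Receptor chains were listed in 4 groups of 27 genes in all, of which 20 passed the filter. By edgeR 9 had more in SI and 0 more in COL, against 15.5% and 12.9% of all genes tested. Their median log2 fold change was 1.15. DESeq2 called 1 chain, Lifr, higher in COL. Prlr, the prolactin receptor, which signals through JAK2 and STAT5, read 309.4, 248.0, 207.2 and 317.0 CPM in SI against 33.6, 25.6, 26.9 and 29.4 CPM in COL. The groups were far apart, with a log2 fold change of 3.23 (SE 0.29) and an adjusted p of 2.3e-05 by edgeR. Il22ra1, the chain that gives epithelium its response to IL-22, read 83.9, 43.1, 29.8 and 81.6 CPM in SI against 3.64, 13.2, 10.1 and 8.33 CPM in COL. All SI values were above all COL values, with a log2 fold change of 2.76 (SE 0.45) and an adjusted p of 0.000939. Its partner Il10rb was at 71.4 ± 8.38 CPM in SI against 18.8 ± 3.10 CPM in COL, a log2 fold change of 1.92 at an adjusted p of 0.000146, although 19.5% of its 50-base stretches occur in other genes.

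RNA of 2 chains of the receptor that feeds STAT6 was also higher in SI. Il13ra1 was at 101.9 ± 47.6 CPM in SI against 22.9 ± 3.50 CPM in COL, a log2 fold change of 2.15 at an adjusted p of 0.000691 by edgeR. Its partner Il4ra read 102.6, 96.4, 24.2 and 95.2 CPM in SI against 21.4, 12.0, 24.7 and 36.1 CPM in COL, so that SI3 lay among the COL libraries. The log2 fold change of Il4ra was 1.75 at an adjusted p of 0.0147 by edgeR. Its call was lost with library size scaling (0.94, adjusted p of 0.138). It was also lost over the libraries of high mitochondrial share (1.75, 0.11) and with the proliferation covariate (1.64, 0.0725). Il2rb, the IL-2 and IL-15 receptor chain typical of T and NK cells, was at 7.83 ± 1.86 CPM in SI against 2.24 ± 2.00 CPM in COL, at an adjusted p of 0.0476. It lost the call without SI1, SI2, SI3, SI4, COL1 or COL3 (adjusted p of 0.059 to 0.124). Il2rg and Il15ra had log2 fold changes of 0.88 and 0.72 that did not pass by edgeR, and 42.0% of the 50-base stretches of Il2rg occur in Gm20489. Il15ra was called by DESeq2 (adjusted p of 0.0334) and limma-voom (0.0391), and by edgeR with the mitochondrial share as a covariate (0.0285) and without COL2 (0.0387).

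Among interferon receptor chains, Ifnlr1 had a log2 fold change of 1.79 (adjusted p of 0.00299), Ifngr2 one of 1.32 (0.00511) and Ifnar1 one of 0.98 (0.013), all by edgeR. The call on Ifnar1 was lost without SI4 (adjusted p of 0.0573), with no filter (0.0639) and with the proliferation covariate (0.0512). With library size scaling the calls on Ifnar1 (0.24 on the log2 scale, adjusted p of 0.464) and Ifngr2 (0.57, 0.13) were lost. Ifngr1, the most abundant of the group at 160.5 ± 71.0 CPM in SI against 148.1 ± 69.5 CPM in COL, had a log2 fold change of 0.12 with overlapping ranges. Ifnar2 had one of 1.77 at an adjusted p of 0.0669 by edgeR, whereas DESeq2 (0.0253) and limma-voom (0.0194) called it. Il6st, the gp130 chain shared by the IL-6 family, ranged from 3.70 to 16.1 CPM in SI and from 6.85 to 14.9 CPM in COL, a log2 fold change of -0.04 at an adjusted p of 0.951. Neither Il11ra1 (-0.11) nor the growth hormone receptor Ghr (-0.29) passed by edgeR. Of the 50-base stretches of Il11ra1 60.0% occur in other genes, Gm13305 and Il11ra2.

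Of 15 ligands, 11 were under the filter. Il15, which supports intraepithelial lymphocytes, was at 43.2 ± 12.2 CPM in SI against 12.1 ± 5.84 CPM in COL, a log2 fold change of 1.84 at an adjusted p of 0.00405 by edgeR. Il7 (-0.30) and Lif (0.68) did not pass. Il6 had 7 counts in COL3 and 0 in the other 7 libraries. Il22 had 0 counts in all 8, which allows up to 0.0628 to 0.186 CPM per library (3 counts, counting error only). This limit covers reads assigned to Il22, and 41% of its 50-base stretches occur in Iltifb.

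Of the remaining JAK and STAT genes, Stat2 was higher in SI and Jak3 and Tyk2 did not pass. Stat2, which acts in the interferon response, was at 80.1 ± 20.1 CPM in SI against 35.6 ± 11.02 CPM in COL, a log2 fold change of 1.17 at an adjusted p of 0.0129 by edgeR. The call on Stat2 was lost without SI4 (adjusted p of 0.052), with library size scaling (0.42 on the log2 scale, 0.3) and with the proliferation covariate (1.10, 0.0545). Tyk2, the kinase of the interferon and IL-12 family receptors, had a log2 fold change of 0.74 at an adjusted p of 0.0724, and Jak3 was at 1.62 ± 1.23 CPM in SI against 1.79 ± 1.01 CPM in COL.

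The other members of the SOCS family went both ways. Socs5 read 0.362, 1.63, 0.659 and 1.33 CPM in SI against 5.75, 16.1, 3.08 and 5.24 CPM in COL, without overlap, a log2 fold change of -2.92 (SE 0.65) at an adjusted p of 0.00568 by edgeR. Socs6 was also higher in COL, at 10.3 ± 2.46 CPM in SI against 21.8 ± 3.44 CPM in COL (log2 fold change -1.09, adjusted p of 0.012), and 11.7% of its stretches occur in other genes. Socs4 was higher in SI, at 36.3 ± 5.13 CPM against 15.3 ± 6.79 CPM (log2 fold change 1.25, adjusted p of 0.0137). The call on Socs4 was lost with library size scaling (0.56, adjusted p of 0.149), and that on Socs6 with the proliferation covariate (-0.88, 0.0528). Socs7 (-0.16) and Cish (0.61) did not pass. Of 9 PIAS proteins, phosphatases and Sh2b3, all tested, 0 passed by edgeR and 3 had an unadjusted p below 0.05. Among all genes tested 28.4% passed. DESeq2 called 1 of them, Pias2, and limma-voom 0. Pias1 and Ptpn2, the most abundant, had log2 fold changes of 0.72 and 0.30.

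Genes described as STAT targets were listed from general knowledge of the pathway, and their levels depend on other factors too. Of 11 genes listed under STAT3, 4 had more in SI and 1 more in COL by edgeR, against 15.5% and 12.9% of all genes tested. Reg3b and Reg3g, lectins that act on gut bacteria, were the most abundant, with Reg3b at 5946, 5928, 7012 and 4728 CPM in SI against 270.6, 59.6, 276.4 and 196.5 CPM in COL. All SI libraries were far above COL, and the log2 fold changes were 4.88 for Reg3b and 4.58 for Reg3g, with adjusted p of 0.000196 and 0.00031 by edgeR. Pim1, a survival kinase, read 100.9, 67.4, 88.5 and 83.8 CPM in SI against 9.89, 6.53, 7.57 and 7.62 CPM in COL (log2 fold change 3.43, adjusted p of 1.2e-05). The survival factor Bcl2l1 had a log2 fold change of 1.94 at an adjusted p of 0.00348.

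Fut2, the fucosyltransferase that decorates epithelial glycans, went the other way. It read 0.136, 0.725, 0.101 and 0.641 CPM in SI against 110.5, 68.8, 118.3 and 102.6 CPM in COL. In SI these values rest on 2 to 14 counts, and the log2 fold change was -7.99 (SE 0.59). Mcl1 (-0.14) and Myc (-0.86) did not pass. Of the 3 genes under STAT5, Cish, Bcl6 and Igf1, 0 passed by edgeR, DESeq2 or limma-voom, and 0 had an unadjusted p below 0.05. Over the libraries of low mitochondrial share alone, Bcl6 passed by edgeR (2.07 on the log2 scale, adjusted p of 0.0238), whereas over those of high share it had -0.28. Of the 3 listed as interferon-induced, Irf1 (log2 fold change 1.63, adjusted p of 0.0128) and Cxcl10 (2.33, 0.0421) were higher in SI and Gbp2 (-1.82, 0.134) did not pass. The call on Irf1 was lost with library size scaling (0.87, adjusted p of 0.109) and with the proliferation covariate (1.16, 0.0813). The call on Cxcl10 was lost with the donor mouse as a block (adjusted p of 0.0519), without SI1, the library with its highest count (0.204), and without SI4, COL1, COL2 or COL3 (0.053 to 0.114).

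Other sets of libraries and another scaling were tried for the 9 genes. Stat6, Jak2 and Socs3 passed in all 19 alternatives, and all 4 called genes passed without any 1 library. With counts scaled by library size alone, 4 genes still passed but not the same 4. Stat6, Jak2 and Socs3 were higher in SI (log2 fold changes of 1.06, 1.40 and 2.02), Stat5a was higher in COL (-1.13, adjusted p of 0.0438) and Stat3 did not pass (0.54, adjusted p of 0.199). Relative to the shifted median gene, Stat3 stood at 1.37 and Stat5a at -0.31, near their values under TMM.

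**Figure D5:**
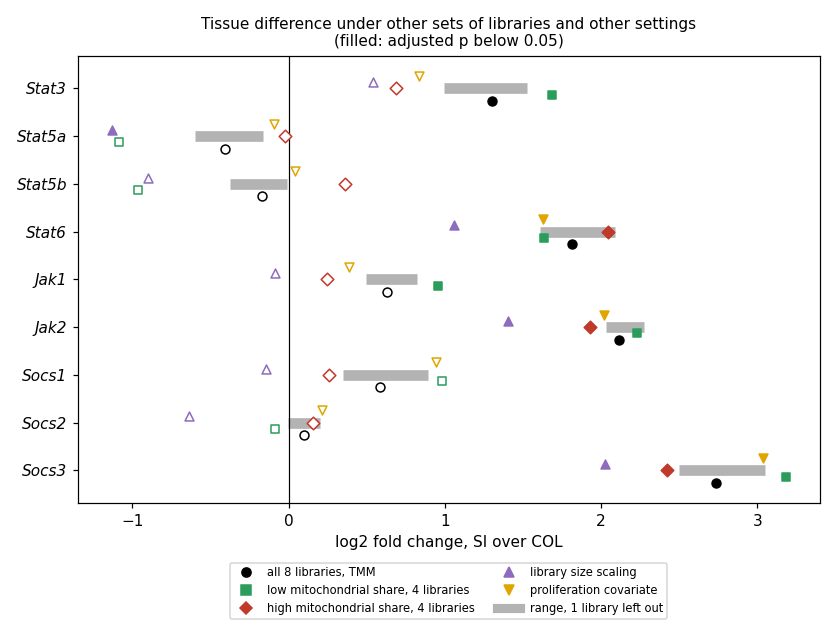
Log2 fold change of SI over COL (x axis) for each of the 9 genes (y axis) from all 8 libraries, from the 4 libraries of low or of high mitochondrial share, with library size scaling and with a proliferation covariate. Filled symbols had an adjusted p below 0.05 and grey bars span the 8 fits that leave out 1 library, and only Stat6, Jak2 and Socs3 are filled throughout.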

How the data were processed

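The authors sequenced RNA of SI and COL crypts from 4 donor mice. Per the submitters' processing notes, Trimmomatic 0.36 and STAR 2.5.2b were used, and the methods name mm10. The deposited files hold whole-number counts per Ensembl gene, not normalized, with 1 column per library. The annotation release and the use of strand are not given in the sources used here. Symbols, coordinates and exon lengths came from GENCODE vM21, built on GRCm38 like mm10, which matched 45143 of 45706 identifiers. Total counts were 15969428 to 32908060.

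Counts were tested with edgeR 4.0.16 (R 4.3.3), using glmQLFit and glmQLFTest, TMM, and filterByExpr by tissue, with Benjamini-Hochberg adjustment over all 14491 genes kept and a threshold of 0.05. For CPM, counts were divided by each library's TMM-scaled total over the genes kept. Ratios are log2 of counts with 0.5 added, compared by two-sided exact permutation tests. The methods name limma without its settings, so limma-voom (limma 3.58.1) was an alternative. Other alternatives were DESeq2 1.42.0, library size scaling, the donor block, no filter, at least 10 counts in every library, the mitochondrial share as a covariate, 0.5 replaced by 5 in ratios, and leaving out each library. The test procedure was tried on simulated data with a dispersion of 0.05 and no donor or mitochondrial differences. The common dispersion of these data was 0.245, so that the simulation does not show how the test performs at this spread.

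SI and COL libraries pair by the donor mouse in the labels. The deviations of same-donor libraries from their tissue means correlated at -0.24, 0.393, -0.0786 and 0.327, against a mean of -0.031 between donors. Libraries of a tissue differed by 91.7 to 1244 in chi-square per gene (1 under sampling noise) and were kept as separate samples. With 1 library per mouse and tissue, p-values without the donor block measure the spread between libraries of a tissue. Mouse, preparation and mitochondrial share all enter that spread. The donor block and the sign-flip test use differences within mice. 1 gene of the pathway lists is not reported here. Members and gene lists were chosen with earlier results of these data known. Named are the 9 members, every other reported pathway gene past the threshold, the 2 most abundant tested genes of each list that did not pass, and the 2 genes most correlated with each member. Igf1, Il6, Il22, Lifr, Pias2, Sh2b3, tissue and cell markers, genes holding a promoter motif and genes sharing reads with a named gene were named beyond this rule, after their values were seen. Reads that several genes can share were checked by asking which 50-base stretches of a gene's longest transcript recur in other genes. Promoters came from RefSeq (GRCm38.p6), for 8 of the 9 members, without Socs2.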

Additional observations from a re-analysis of the deposited data

Results flagged for a closer look

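Jak1 in COL2 stood apart from the other COL libraries. It read 77.1 CPM there, and 48.9 to 52.5 CPM in COL1, COL3 and COL4, so that the gap to its nearest neighbour exceeded Dixon's critical value for the range of 4 samples. Each of the 9 genes and 3 ratios was checked in each tissue, 24 groups in all, and chance alone exceeds that value in about 1 of 20 groups. COL2 also had the lowest total count and the highest mitochondrial share (50.8%) of the 8 libraries, and the part of either in its Jak1 level was not tested. Without COL2 the log2 fold change of Jak1 was 0.82, with an adjusted p of 0.035 by edgeR.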

How the results depend on the processing

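The call on Jak2, Stat6 and Socs3 held in all 19 alternatives, 8 of which left out 1 library. The number of called genes among the 9 was 4 to 5 without 1 library, and 3 to 5 over all alternatives. Among the other pathway genes 17 to 24 were called without 1 library, 12 with the libraries of high mitochondrial share alone (4 libraries) and 14 with the proliferation covariate, against 21. Calls over all genes tested fell too, from 4116 of 14491. They were 2264 of 15324 with the libraries of high mitochondrial share alone and 2846 of 14491 with the proliferation covariate. These 2 settings and the libraries of low mitochondrial share alone were chosen after the data were seen. With the donor mouse as a replicate block, edgeR called 4 of the 9 genes and 21 others, and limma-voom 4 and 24, and the block changed no call on the 9 genes. The sign-flip p of the Jak1 to Jak2 ratio with the replicate block was 0.125 for a difference of -1.50. Without 1 library that difference was -1.63 to -1.42 and the exact permutation p 0.0571, the smallest that 4 against 3 libraries allow. The Socs3 to Stat3 ratio differed by 1.07 to 2.14 without 1 library.

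Changes of direction touched genes that had not passed. With library size scaling the log2 fold change became -0.0904 for Jak1, -0.15 for Socs1, -0.64 for Socs2, -0.67 for Ifngr1, -0.44 for Ptpn2, -0.13 for Cish, -0.0648 for Pias1, -0.0317 for Lif, -0.0151 for Tyk2 and -0.0138 for Il15ra. With the libraries of high mitochondrial share it was 0.36 for Stat5b, 0.13 for Il11ra1, 0.0834 for Myc and -0.28 for Bcl6, and with those of low share -0.0854 for Socs2, -0.38 for Cish, 0.20 for Jak3, 0.38 for Mcl1 and 0.68 for Il6st. With the mitochondrial share as a covariate it was -0.0771 for Ifngr1, 0.0208 for Mcl1, 0.0442 for Il6st and 0.20 for Jak3. With the proliferation covariate it was 0.0402 for Stat5b, -0.33 for Ifngr1 and 0.0545 for Il11ra1, and with at least 10 counts in every library -0.0139 for Socs2. Without 1 library the ranges that crossed 0 were -0.00171 to 0.20 for Socs2, -0.20 to 0.33 for Ifngr1, -0.29 to 0.27 for Il6st, -0.23 to 0.17 for Mcl1, -0.78 to 0.20 for Jak3, -0.24 to 0.0297 for Socs7 and -0.24 to 0.0311 for Il11ra1. The cause of these changes was not tested. Socs1 rests on 5 to 18 counts per library, and the 95% interval of its log2 fold change ran from -0.95 to 2.12.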
